A study of Mus musculus with 12 samples.

Results

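Hmox1 and 9 other genes of the response to oxidative stress were followed in mouse kidney RNA-seq libraries. The genes were Hmox1, Hmox2, Nqo1, Gclc, Gclm, Txnrd1, Srxn1, Slc7a11, Gsr and Nfe2l2, and they were found by symbol as 10 of the 24062 genes of the deposited tables. The list was chosen by name with earlier results of these data known, and the level of Hmox1 itself had already been seen. Hmox1 is therefore described without a test, and the other genes were tested in a fit over all genes. Of the 10 genes, 9 passed the filter on low counts, and Slc7a11 did not.

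The kidneys came from adult Pkd1 mice, a model of polycystic kidney disease, that were induced with tamoxifen at 6 to 8 weeks of age. The mice either carried Cre (CrePlus) or did not (CreMinus), and the induced recombinase is meant to act on Pkd1 in the CrePlus mice. Each mouse lost 1 kidney (unilateral nephrectomy, UNx) or had a sham operation, and kidney tissue was taken 4 weeks later. The 4 groups were UNx CrePlus, UNx CreMinus, sham CrePlus and sham CreMinus, with 3 libraries each. Replicate numbers 1 to 3 were assigned here in sample order within each group. All of the mice were induced with tamoxifen, including those without Cre, and the labels name neither the promoter that drives Cre nor the part of Pkd1 that it removes.

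NRF2, the product of Nfe2l2, is a transcription factor that the adaptor KEAP1 holds at a low level until oxidants or electrophiles disable KEAP1. NRF2 then enters the nucleus and, with a small MAF protein, binds antioxidant response elements beside genes that make glutathione, reduce thioredoxin and detoxify quinones. Hmox1, which encodes the inducible haem oxygenase that opens the haem ring, is also held down by the repressor BACH1, which haem itself removes from DNA. In kidney, Hmox1 is known for its induction in tubules and macrophages after injury or haem load, while Hmox2 encodes the constitutive haem oxygenase.

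The sequences below show the core of the antioxidant response element, TGACNNNGC, where the promoter windows of these genes hold it. Each window in the RefSeq promoter table for GRCm38 runs from 250 bases before to 50 bases after a transcript start. The core was searched for on both strands, where it reads GCNNNGTCA on the other strand, and capitals mark the match. The flanks reach 16 bases to each side or to the end of the window.
Gclm, chr3:122245407-122245447, plus strand gene: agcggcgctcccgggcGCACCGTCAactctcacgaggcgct
Txnrd1, chr10:82859098-82859138, plus strand gene: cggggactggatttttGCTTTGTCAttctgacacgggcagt
Srxn1, chr2:152105536-152105573, plus strand gene: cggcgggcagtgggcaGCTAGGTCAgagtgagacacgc
Nfe2l2, chr2:75704879-75704913, minus strand gene: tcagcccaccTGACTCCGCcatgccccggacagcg
The match begins 134 bases before the transcript start in Gclm, 92 before it in Txnrd1, 28 after it in Srxn1 and 240 before it in Nfe2l2. Of the 7 genes with a window, 4 held a match, against 13.99% of 27025 genes in the table. Txnrd1 has 3 windows, 1 of which holds the match, and the letters were not found in the windows of Hmox2, Nqo1 and Slc7a11. Windows of Hmox1, Gclc and Gsr were not used here. A match is a description of the letters, and no binding was measured.

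UNx CrePlus replicates 1 to 3 and UNx CreMinus replicate 1 had totals of 41699032 to 42785476 counts, against 18914300 to 22480895 in the other 8 libraries. Levels are in CPM, the counts divided by library sizes that were scaled by the trimmed mean of M values, and 14970 genes were tested. Xist and Ddx3y marked 5 libraries as male: UNx CrePlus replicates 1 and 2, UNx CreMinus replicate 1, sham CrePlus replicate 3 and sham CreMinus replicate 3. UNx CreMinus replicate 2, taken as female, had counts for all 5 of Xist, Ddx3y, Kdm5d, Eif2s3y and Uty. Their mean log2 CPM, minus the mean over libraries, was -1.34 there. It was -2.31 to -1.96 in the other female and 2.62 to 3.24 in the male libraries, and the reason was not tested. The 6 proximal tubule markers summed to 10519 to 12915 CPM and were counted in every library, so the labelled tissue was plain in all of them. Pkd1, the targeted gene, had 39.6 to 45.5 CPM in UNx CrePlus, 49.3 to 71.6 in UNx CreMinus, 45.9 to 64.1 in sham CrePlus and 57.8 to 76.8 in sham CreMinus kidneys, and reads outside the removed part do not measure the deletion. The labels do not say that each sample came from its own mouse, so the p-values speak only for the spread among the sampled tissues.

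Hmox1 stood far above every other library in 1 UNx CrePlus kidney and lay between 13.3 and 37.5 CPM in the other 11. Hmox1 (gene 15368, GRCm38 chromosome 8, 75093618 to 75100593) had 265.5, 37.5 and 16.2 CPM in UNx CrePlus replicates 1, 2 and 3 and 35.1, 29.2 and 17.6 CPM in UNx CreMinus replicates 1, 2 and 3. It had 19.5, 13.3 and 22.6 CPM in sham CrePlus kidneys and 17.0, 15.1 and 26.0 CPM in sham CreMinus kidneys. UNx CrePlus replicate 1 was alone at the top, and without it the ranges of all 4 groups overlapped. Its level rested on 11453 counts and was 13.6 times the median of the other 11 libraries (19.5 CPM) and 7.09 times the next highest, UNx CrePlus replicate 2. The group means were 106.4 ± 138.2 CPM in UNx CrePlus and 27.3 ± 8.86 CPM in UNx CreMinus kidneys (SD, n = 3 each). They were 18.5 ± 4.76 CPM in sham CrePlus and 19.4 ± 5.86 CPM in sham CreMinus kidneys. The SD in UNx CrePlus kidneys exceeded the mean.

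**Figure D1:**
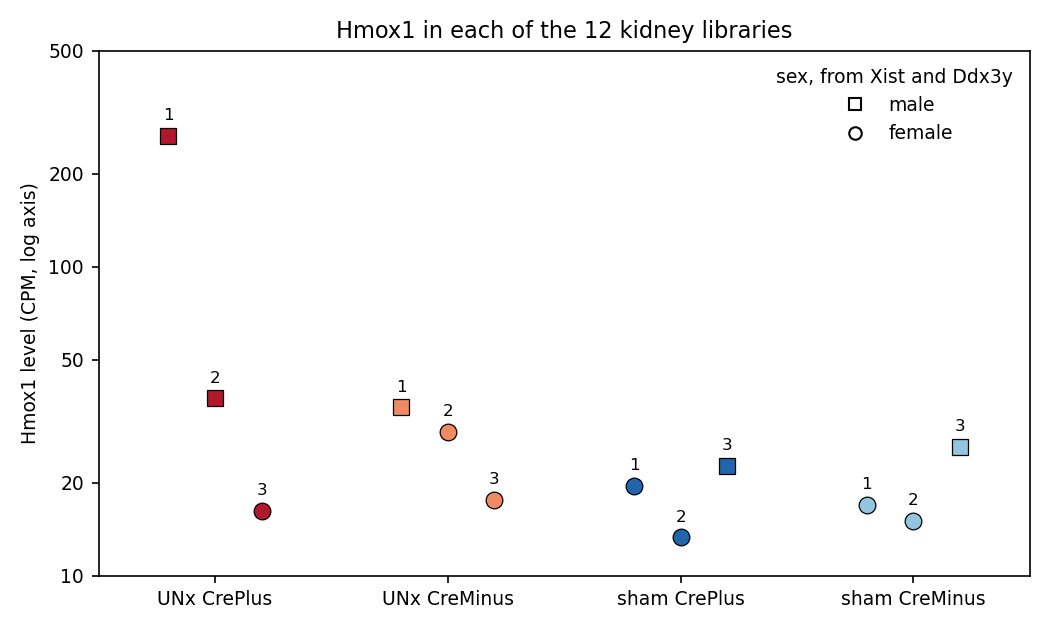
Hmox1 level in CPM (log axis) in each library of the 4 groups, with squares for male and circles for female libraries and the replicate number above each point. UNx CrePlus replicate 1 lies at 265.5 CPM and the other 11 libraries lie between 13.3 and 37.5 CPM.

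The fitted Hmox1 differences followed that library. The log2 fold change of Hmox1 with Cre was 1.96 ± 0.80 (SE) in UNx kidneys, and it was -0.04 ± 0.40 without UNx CrePlus replicate 1. With UNx it was 2.52 ± 0.82 in CrePlus kidneys, and 0.53 ± 0.40 without that library. The interaction of Cre and UNx was 2.03 ± 1.112 for Hmox1 with all 12 libraries and 0.03 ± 0.54 without it. The comparisons that use no UNx CrePlus library were 0.50 ± 0.78 with UNx in CreMinus kidneys and -0.07 ± 0.79 with Cre in sham kidneys in the fit to 12 libraries, which share 1 estimate of the spread. They were 0.50 ± 0.36 and -0.07 ± 0.36 without UNx CrePlus replicate 1. Averaged over surgery, Hmox1 had a log2 fold change with Cre of 0.95 ± 0.56, and of -0.06 ± 0.27 without that library. Averaged over Cre status, its log2 fold change with UNx was 1.51 ± 0.56, and 0.51 ± 0.27 without it. The library was left out because its level was high, so these values describe how far the fold changes rest on it.

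Sex was uneven between the groups, and Hmox1 was also set out within each sex without UNx CrePlus replicate 1. The 2 remaining male UNx kidneys had 37.5 and 35.1 CPM of Hmox1, and the 2 male sham kidneys had 22.6 and 26.0 CPM. The 3 female UNx kidneys had 16.2, 29.2 and 17.6 CPM, and the 4 female sham kidneys had 19.5, 13.3, 17.0 and 15.1 CPM. With 2 libraries on each side, the male values did not overlap between UNx and sham kidneys, and the female values did. The share of all genes that separate the males in this way was not computed. Both of these male UNx libraries were among those with the larger totals of counts, and neither male sham library was. Surgery and depth therefore cannot be told apart among these males. The difference in mean log2 CPM, UNx minus sham, was 0.58 in males and 0.34 in females.

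None of the other genes of the list stood out in the library with the high Hmox1. Among the 12 libraries, UNx CrePlus replicate 1 ranked 10 from the top for Hmox2 (68.5 CPM), Nqo1 (61.4 CPM), Gclm (194.1 CPM) and Nfe2l2 (103.7 CPM), and 11 for Gclc (270.8 CPM). It ranked 4 for Txnrd1 (211.4 CPM) and 6 for Srxn1 (89.7 CPM) and Gsr (146.9 CPM). For all 8 it lay inside the range of the other 11 libraries. Gclc and Gclm, the catalytic and modifier subunits of the enzyme that starts glutathione synthesis, were lower there than in the other male kidneys. Those 4 kidneys had 377.7 to 475.0 CPM of Gclc and 247.2 to 295.2 CPM of Gclm. For Hmox2, Nqo1, Txnrd1, Srxn1, Gsr and Nfe2l2, UNx CrePlus replicate 1 lay inside the range of those 4 kidneys. The share of all genes lowest in it among the males was not computed. Among all 14970 genes, Hmox1 had the largest gap between UNx CrePlus replicate 1 and the highest other library. In this library 3 genes exceeded every other library by over 1 log2 unit, and in the other 11 libraries that number ran from 0 to 18. Besides Hmox1, the 3 were Hif3a, a hypoxia-inducible factor subunit, and Rtn4rl2. Hif3a had 5.19 CPM against at most 1.45 CPM elsewhere, and Rtn4rl2 had 1.599 CPM against at most 0.738 CPM. Both were named after their values were seen.

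**Figure D2:**
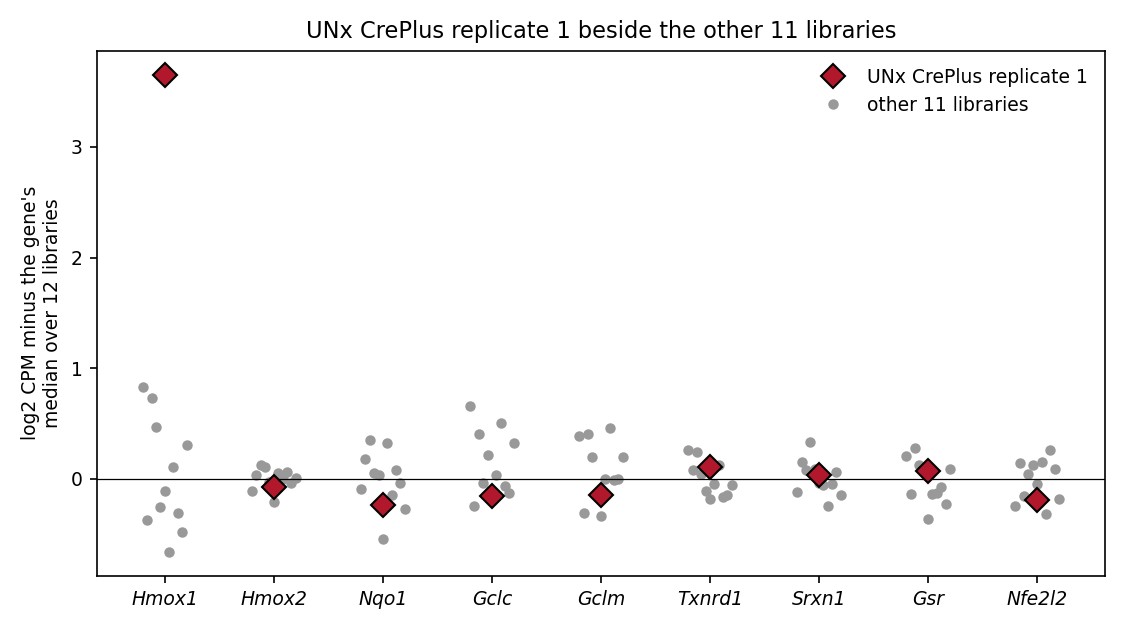
Log2 CPM of 9 genes minus each gene's median over 12 libraries, with UNx CrePlus replicate 1 as a diamond and the other 11 libraries as grey points. The diamond stands above all points for Hmox1 and among the points for the other 8 genes.

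Macrophage and injury markers were high in UNx CrePlus replicate 1 and in some other libraries. The 10 macrophage markers summed to 241.8, 259.5 and 135.6 CPM in UNx CrePlus and 125.7, 141.7 and 131.3 CPM in UNx CreMinus replicates 1, 2 and 3. They summed to 202.0, 129.1 and 162.8 CPM in sham CrePlus and 136.2, 116.2 and 298.7 CPM in sham CreMinus kidneys. In this sum, where abundant markers weigh most, UNx CrePlus replicate 2 and sham CreMinus replicate 3 lay above the library with the high Hmox1. They had 37.5 and 26.0 CPM of Hmox1. With each marker weighted alike, as the mean log2 CPM minus its mean over the 12 libraries, UNx CrePlus replicate 1 was highest at 0.99. UNx CrePlus replicate 2 followed at 0.83 and sham CreMinus replicate 3 at 0.69. All 10 of these markers were counted in every library. In bulk tissue, fewer cells of a type and less RNA per cell cannot be told apart.

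The 8 tubular injury markers, among them the kidney injury gene Havcr1, summed to 4097, 2615 and 3564 CPM in UNx CrePlus and 1318, 3663 and 2986 CPM in UNx CreMinus kidneys. They summed to 3780, 2717 and 921.0 CPM in sham CrePlus and 2386, 2377 and 1124 CPM in sham CreMinus kidneys. UNx CrePlus replicate 1 had the highest sum, and sham CrePlus replicate 1, with 19.5 CPM of Hmox1, had the next highest. With each injury marker weighted alike, these libraries had 1.72 and 1.37, and UNx CrePlus replicate 2 followed at 1.19. Of the 8 markers only Havcr1 is given by itself, and it does not stand for the list. It had 74.8 CPM in UNx CrePlus replicate 1 and 74.2 CPM in sham CrePlus replicate 1. UNx CreMinus replicate 2, with 29.2 CPM of Hmox1, had 121.0 CPM of Havcr1. The 4 fibroblast and matrix markers were highest in UNx CrePlus replicate 1, with 413.5 CPM against 330.9 CPM in UNx CrePlus replicate 2 and 95.7 to 297.7 CPM in the remaining libraries. The 4 loop of Henle and distal tubule markers were lowest in it, with 5815 CPM against 6527 to 9279 CPM elsewhere. Collecting duct (272.7 CPM, 4 markers), podocyte (225.6 CPM, 4 markers) and endothelial markers (333.1 CPM, 4 markers) lay within the ranges of the other libraries, which were 176.3 to 544.6, 150.8 to 336.9 and 218.6 to 373.8 CPM for these cell types in turn. The part of these markers in the Hmox1 level was not tested.

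Haem handling was examined because haem is the substrate of the Hmox1 product. Tfrc, the transferrin receptor that imports iron, had 41.4 CPM in UNx CrePlus replicate 1 and 74.4 to 127.4 CPM in the other 11 libraries. Slc40a1, the iron exporter ferroportin, had 139.1 CPM there and 73.2 to 114.6 CPM elsewhere. The whole list of 13 haem and iron genes summed to 6094 CPM in that library, inside the range of 5842 to 8121 CPM in the others. Of the 5 erythroid markers, Hba-a1, Hba-a2, Hbb-bs and Hbb-bt were listed at 0 counts in all 12 libraries. Alas2, the erythroid enzyme of haem synthesis, had 8.21 CPM in UNx CrePlus replicate 1, within its range of 2.95 to 27.3 CPM. With the globin genes at 0 throughout, these tables do not measure blood in the kidneys. Tfrc and Slc40a1 were picked out after their values were seen.

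Per length of exon, Gclc had the highest level of the 10 genes and Slc7a11 the lowest. The median over 12 libraries was 80.0 CPM per kb of exon for Gclc, 50.7 for Gsr, 46.7 for Nqo1, 34.2 for Gclm and 32.5 for Hmox2. It was 31.2 for Nfe2l2, 31.0 for Srxn1, 27.7 for Txnrd1, 12.04 for Hmox1 and 0.0174 for Slc7a11. Gclc lay above Gsr in every library range, with 67.5 to 126.1 against 39.4 to 61.6 CPM per kb. Each other pair of neighbours down to Txnrd1 overlapped in range. Hmox1 ranged from 7.59 to 151.6 CPM per kb, so in UNx CrePlus replicate 1 it passed the highest value of Gclc. Without that library Hmox1 lay below the range of Txnrd1, which was 24.4 to 33.2 CPM per kb. The exon length is the union of all annotated exons, which understates the level of genes with long rare exons.

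Gclc and Gclm overlapped between all 4 groups, and Gsr separated 1 pair of compared groups. Gclc (gene 14629, chromosome 9, 77754535 to 77794489) had 270.8, 475.0 and 254.0 CPM in UNx CrePlus, 400.0, 294.3 and 350.4 in UNx CreMinus, 272.6, 308.5 and 427.7 in sham CrePlus and 288.6, 276.1 and 377.7 in sham CreMinus replicates 1, 2 and 3. Gclm (gene 14630, chromosome 3, 122245487 to 122267215) had 194.1, 281.5 and 174.1 CPM in UNx CrePlus, 285.6, 247.2 and 197.3 in UNx CreMinus, 170.4, 214.9 and 295.2 in sham CrePlus and 214.2, 215.1 and 247.2 in sham CreMinus kidneys. For both subunits the groups overlapped, and the 3 highest libraries were male. Gsr (gene 14782, chromosome 8, 33653238 to 33698162), which returns oxidised glutathione to its reduced form, had 146.9, 160.8 and 127.1 CPM in UNx CrePlus and 169.6, 152.6 and 148.4 CPM in UNx CreMinus kidneys. It had 108.6, 127.3 and 127.5 CPM in sham CrePlus and 132.6, 119.2 and 148.3 CPM in sham CreMinus kidneys. All 3 UNx CreMinus libraries lay above the 3 sham CreMinus libraries, with 148.4 and 148.3 CPM in the nearest pair, and the CrePlus groups overlapped.

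Slc7a11 (gene 26570, chromosome 3, 50364936 to 50499087), the cystine importer that feeds glutathione synthesis, was barely detected. It had 15, 10 and 12 counts in UNx CrePlus, 3, 6 and 5 in UNx CreMinus, 10, 5 and 0 in sham CrePlus and 4, 3 and 4 in sham CreMinus kidneys. The count of 0 in sham CrePlus replicate 3 allows up to 0.148 CPM (3 counts, counting error only). The UNx CrePlus libraries were among the deepest, and in CPM they had 0.348, 0.246 and 0.275, against at most 0.424 CPM in another library. They overlapped UNx CreMinus and sham CrePlus kidneys, while the sham CreMinus libraries had 0.141 to 0.187 CPM. Slc7a11 did not pass the filter and was not tested.

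Nqo1, Txnrd1 and Srxn1 encode enzymes that reduce quinones, thioredoxin and oxidised peroxiredoxins. Nqo1 (gene 18104, chromosome 8, 107388225 to 107403205) had 61.4, 68.0 and 82.3 CPM in UNx CrePlus, 92.6, 75.1 and 74.3 in UNx CreMinus, 49.6, 90.6 and 65.8 in sham CrePlus and 76.9, 70.8 and 60.1 in sham CreMinus kidneys. Its lowest and second highest libraries were both sham CrePlus. Txnrd1 (gene 50493, chromosome 10, 82833951 to 82897724) had 211.4, 235.4 and 208.2 CPM in UNx CrePlus, 232.4, 202.3 and 182.0 in UNx CreMinus, 173.1, 190.6 and 214.0 in sham CrePlus and 174.8, 177.6 and 189.3 in sham CreMinus kidneys. Srxn1 (gene 76650, chromosome 2, 152105524 to 152111376) had 89.7, 80.5 and 97.3 CPM in UNx CrePlus, 92.5, 110.2 and 92.8 in UNx CreMinus, 85.0, 84.2 and 73.6 in sham CrePlus and 84.5, 91.2 and 79.2 in sham CreMinus kidneys. For Srxn1 the UNx CreMinus libraries lay above all sham CreMinus libraries, and the CrePlus groups overlapped for both genes.

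Hmox2 varied least of the tested genes, and Nfe2l2 separated by sex. Hmox2 (gene 15369, chromosome 16, 4726361 to 4766742) had 68.5, 67.0 and 74.1 CPM in UNx CrePlus, 78.8, 77.6 and 70.9 in UNx CreMinus, 62.3, 74.8 and 71.9 in sham CrePlus and 75.3, 70.4 and 72.4 in sham CreMinus kidneys. Its highest library was 1.26 times its lowest, the smallest span of the 9 genes that passed the filter. Nfe2l2 (gene 18024, chromosome 2, 75675513 to 75704663) had 103.7, 99.8 and 131.1 CPM in UNx CrePlus, 106.6, 122.2 and 128.9 in UNx CreMinus, 114.7, 132.0 and 94.7 in sham CrePlus and 141.6, 125.7 and 104.2 in sham CreMinus kidneys. The groups overlapped, and the 5 lowest libraries were the 5 male ones. How many of all genes separate the sexes in this way was not computed. Hmox2, Gclm, Txnrd1 and Gsr overlap other annotated genes, Cdip1 for Hmox2 and Eid3 for Txnrd1 among them, and reads without strand could not be separated.

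**Figure D3:**
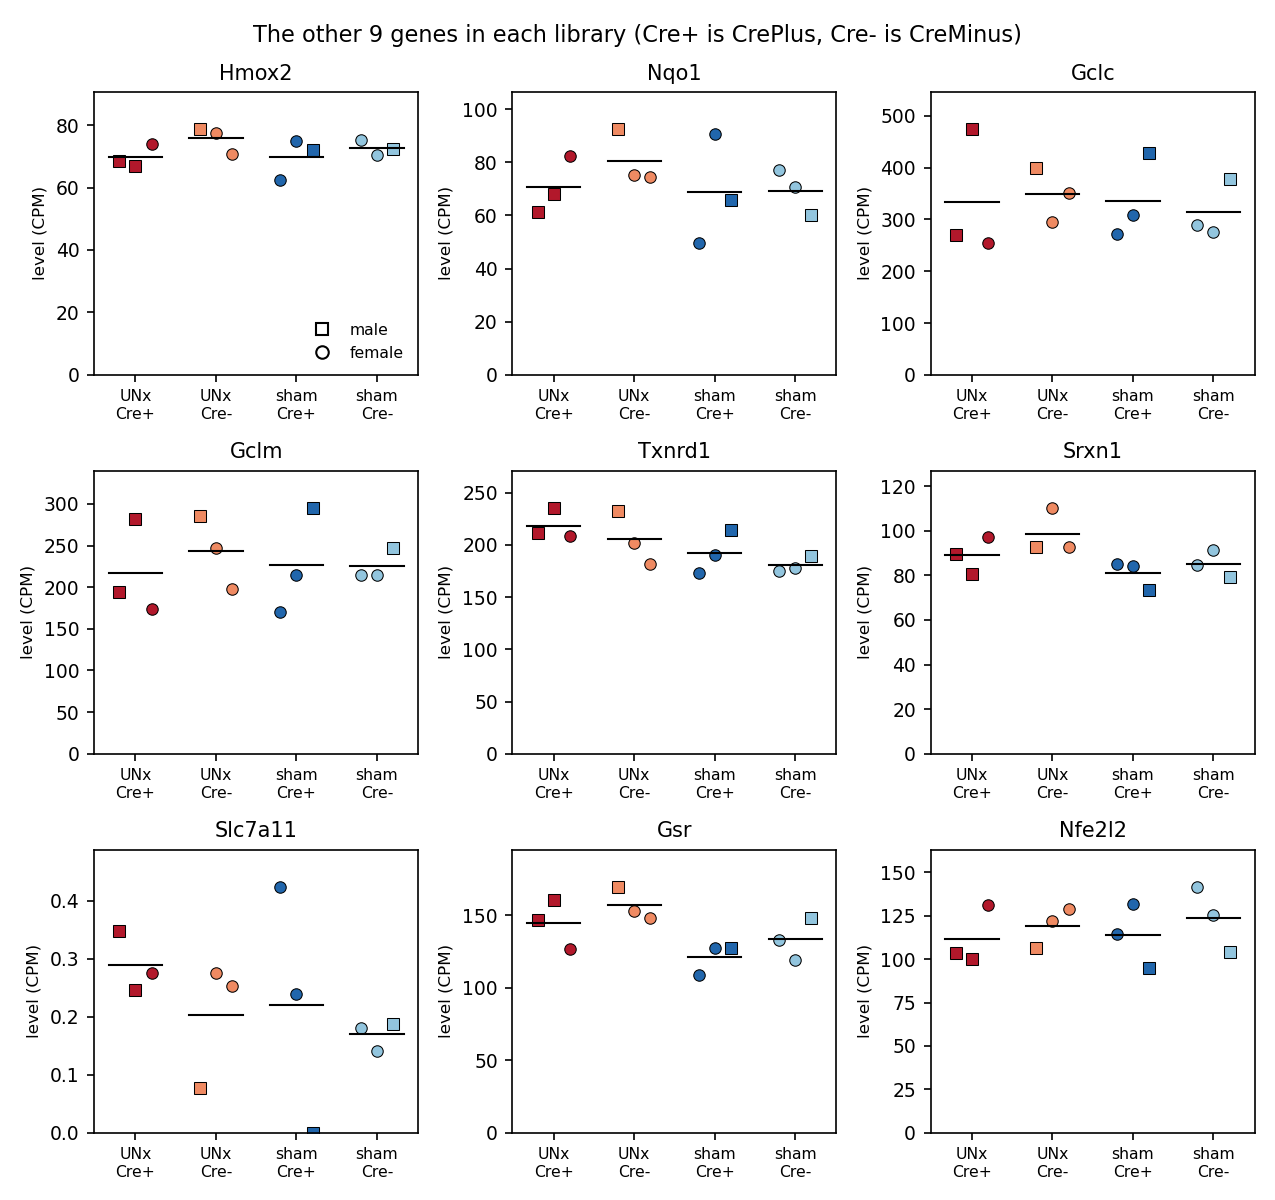
Level in CPM of the other 9 genes in each library, with squares for male and circles for female libraries, replicates 1 to 3 from left to right and a bar at the group mean of 3 libraries. The groups overlap in most panels, and Slc7a11 stays below 0.5 CPM.

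CrePlus was compared with CreMinus to see whether these genes differ with Cre in kidneys with and without UNx. Of the 8 tested genes, 0 were called by edgeR or DESeq2 at an adjusted p under 0.05 in UNx kidneys, in sham kidneys or averaged over surgery. Over all genes, 0.140%, 0.0267% and 0.521% were called by edgeR in these 3 comparisons, and DESeq2 called 1.28%, 0.356% and 2.61% of the genes to which it gave an adjusted p. In UNx kidneys 1 of the 8, Txnrd1, was higher and 7 were lower, with a median log2 fold change of -0.12 against -0.01 over all genes. The values ran from -0.19 ± 0.20 for Nqo1 to 0.09 ± 0.11 for Txnrd1. In sham kidneys 3 were higher and 5 lower, with a median of -0.04 against 0.00 over all genes. Averaged over surgery the median was -0.10, and values ran from -0.13 ± 0.08 for Gsr (edgeR adjusted p = 0.551) to 0.09 ± 0.08 for Txnrd1. At an unadjusted p under 0.05 there were 0 of the 8 in each, against 1598 of all genes in UNx kidneys, 606 in sham kidneys and 1773 averaged over surgery. None of the 8 separated the libraries of the 2 groups, whereas 15.8% of all genes did so in UNx and 8.16% in sham kidneys.

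UNx was compared with sham to see whether the kidney that remains differs in these genes 4 weeks later. Again 0 of the 8 genes were called by edgeR or DESeq2 in CrePlus kidneys, in CreMinus kidneys or averaged over Cre status, and 0% of all genes were called by edgeR in each. DESeq2 called 0.0891%, 0.0134% and 0.0830% of the genes with an adjusted p in the same order. In CreMinus kidneys 7 of the 8 were higher, with a median log2 fold change of 0.17 against 0.00 over all genes. Gsr and Srxn1 separated the CreMinus groups, as 4.86% of all genes did. In CrePlus kidneys 5 were higher, with a median of 0.02, and 0 of the 8 separated the groups, against 9.78% of all genes. Averaged over Cre status, Gsr was higher by a log2 fold change of 0.25 ± 0.08 (unadjusted p = 0.0128), Txnrd1 by 0.18 ± 0.08 (unadjusted p = 0.0413) and Srxn1 by 0.18 ± 0.07 (unadjusted p = 0.0358) in the edgeR fit. Each had an adjusted p of 0.875 with edgeR, so none passed. Over all genes 848 had an unadjusted p under 0.05 there, which is 5.66%. Gsr alone of the 8 had one in CrePlus kidneys, where 1022 of all genes did, and 0 had one in CreMinus kidneys, where 194 did. UNx libraries also held all 4 deep ones, and with a term for depth Txnrd1 was at 0.00 and the sign of its fitted value turned.

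The interaction, which asks whether the Cre difference depends on surgery, called 0 of the 8 genes and 0% of all genes with edgeR, and DESeq2 called 0 as well. At an unadjusted p under 0.05 it had 0 of the 8, against 277 genes in all. The median over the 8 was -0.06, and values ran from -0.18 ± 0.28 for Nqo1 to 0.03 ± 0.22 for Nfe2l2. These intervals are wide, and for Nqo1 the 95% interval ran from -0.80 to 0.44. The comparisons share libraries and are given side by side.

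**Figure D4:**
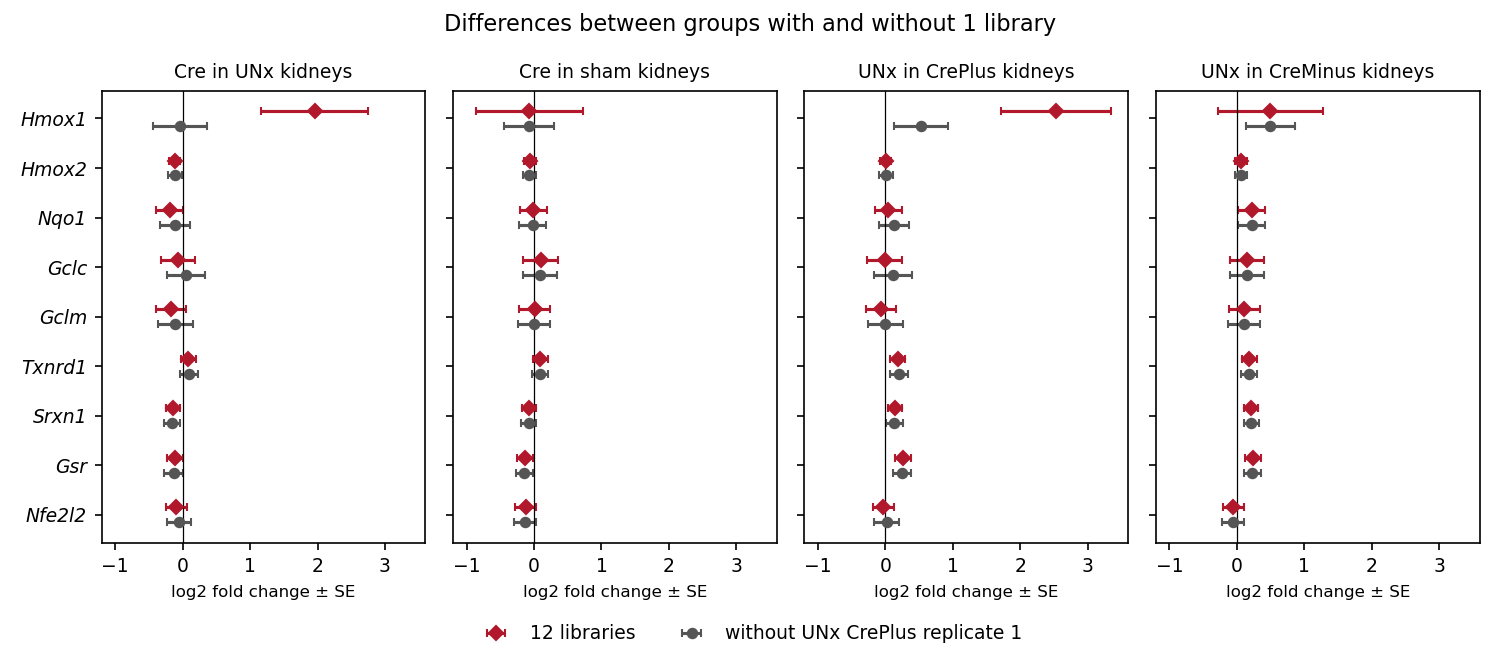
Log2 fold change ± SE of 9 genes in 4 comparisons, from all 12 libraries (diamonds) and without UNx CrePlus replicate 1 (circles). Hmox1 moves from 1.96 to -0.04 for Cre in UNx kidneys and from 2.52 to 0.53 for UNx in CrePlus kidneys, and the other 8 genes stay near 0 with and without that library.

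By Cre status or surgery 0 of the 8 tested genes were called, and edgeR called at most 0.521% of all genes. Between male and female kidneys 4 of the 8 were called, where 20.4% of all genes were. This comparison was added after the data were examined, with sex as a term beside the 4 group means. Nfe2l2 was lower in males, with a lowest, median and highest level of 94.7, 103.7 and 106.6 CPM in 5 male kidneys and 114.7, 128.9 and 141.6 CPM in 7 female kidneys. No male reached the lowest female, and the share of all genes that separate the sexes in this way was not computed. Its log2 difference, male minus female, was -0.33 ± 0.06 (edgeR adjusted p = 0.00273).

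Gclc and Gclm went the other way. Gclc had 270.8, 400.0 and 475.0 CPM as lowest, median and highest in males and 254.0, 288.6 and 350.4 CPM in females, a log2 difference of 0.46 ± 0.13 (edgeR adjusted p = 0.0252). Gclm had 194.1, 281.5 and 295.2 CPM in males and 170.4, 214.2 and 247.2 CPM in females, a difference of 0.41 ± 0.11 (edgeR adjusted p = 0.0249). Only UNx CrePlus replicate 1 among the males lay inside the female range of Gclc. Gsr had 127.5, 148.3 and 169.6 CPM in males and 108.6, 127.3 and 152.6 CPM in females, with overlap, and a difference of 0.20 ± 0.06 (edgeR adjusted p = 0.0430).

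Of the 8 tested genes 4 were thus called, where 20.4% of all genes were. Txnrd1 (0.18 ± 0.06, edgeR adjusted p = 0.0585), Srxn1 (-0.17 ± 0.06, adjusted p = 0.0666), Nqo1 (-0.10 ± 0.14, adjusted p = 0.662) and Hmox2 (0.00 ± 0.06, adjusted p = 0.977) were not called. Hmox1 had 22.6 to 37.5 CPM in the 4 males other than UNx CrePlus replicate 1 and 13.3 to 29.2 CPM in females. Nfe2l2 was called whichever of the 12 libraries was left out. Gclc and Gclm were each called in 9 of these 12 fits (edgeR adjusted p up to 0.111 and 0.135) and Gsr in 2 (up to 0.145). Without UNx CrePlus replicate 3 or sham CrePlus replicate 3, Nfe2l2 was the only one of the 8 called. Of all genes 17.5% and 9.63% were called in these fits. The 8 had 2 calls without UNx CreMinus replicate 1 or sham CreMinus replicate 3, where 13.3% and 13.2% of all genes were called. Of the deep libraries 3 were male and 1 female. With terms for sex and depth 2 of the 8, Gclc and Nfe2l2, were called, where 13.5% of all genes were.

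**Figure D5:**
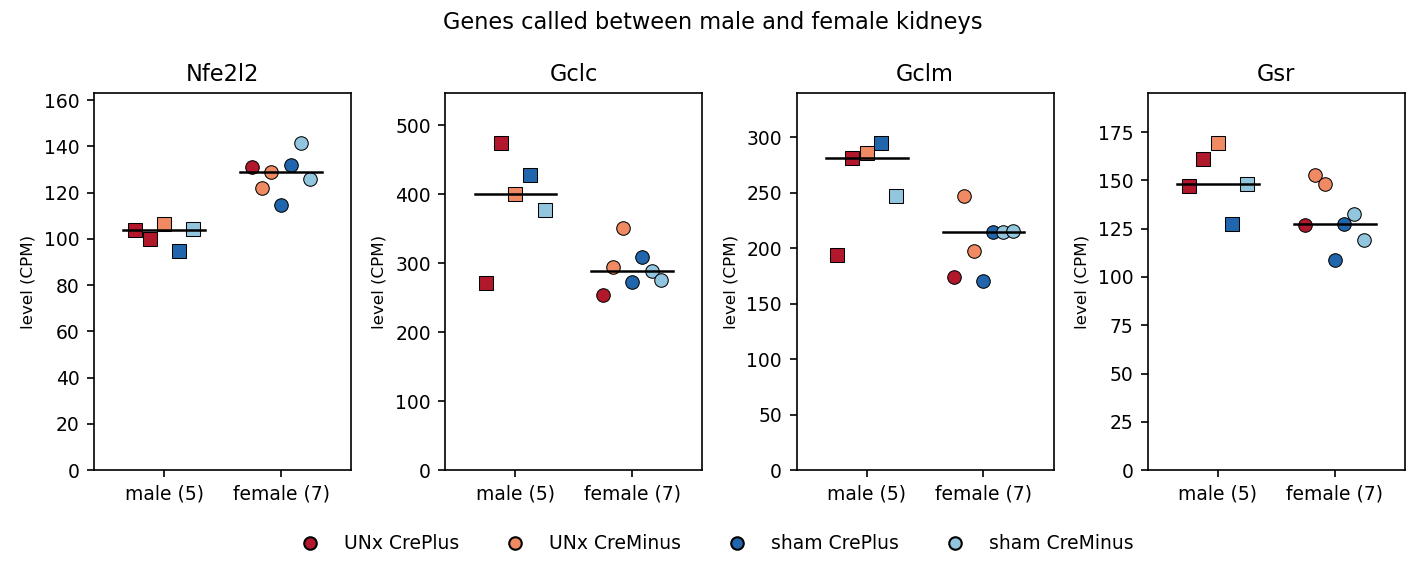
Level in CPM of Nfe2l2, Gclc, Gclm and Gsr in 5 male and 7 female libraries, coloured by group, with a bar at the median. All male libraries lie below all female libraries for Nfe2l2, and for Gclc all males but UNx CrePlus replicate 1 lie above the females.

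Among related pathway genes, 0 of 80 were called with edgeR by Cre status or surgery and 29 by sex, where 20.4% of all genes were called by sex. The 8 lists held 85 genes, of which 80 were tested with edgeR. At an unadjusted p under 0.05 there were 12 of the 80 for Cre in UNx kidneys, where 10.7% of all genes had one, and 3 for Cre in sham kidneys, where 4.05% did. There were 2 for UNx in CrePlus kidneys, against 6.83% of all genes, and 1 for UNx in CreMinus kidneys, against 1.30%. There were 12 for Cre averaged over surgery (11.8% of all genes), 4 for UNx averaged over Cre status (5.66%) and 1 for the interaction (1.85%). For UNx averaged over Cre status, the median log2 fold change was 0.01 over 11 regulators of NRF2, 0.00 over 20 glutathione genes and 0.03 over 10 thioredoxin and peroxiredoxin genes. It was 0.20 over 6 NADPH supply genes and -0.03 over 12 haem and iron genes. It was 0.02 over 4 superoxide dismutase and catalase genes, 0.10 over 7 NADPH oxidase genes and -0.13 over 10 detoxification and export genes. All 6 NADPH supply genes were higher, where 48.9% of all genes were, and 1 of the 6 had an unadjusted p under 0.05 with edgeR. The deep libraries were all UNx ones, so surgery and depth were not separated there. For Cre averaged over surgery the medians in the same order were 0.03, -0.11, -0.13, -0.05, 0.02, -0.04, 0.24 and -0.14. The median over all genes was 0.00 in both comparisons.

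Of the 29 genes called by sex, 10 were higher and 19 lower in males. Cbr1, a carbonyl reductase, was lower in males by a log2 difference of -2.78 ± 0.25 (edgeR adjusted p = 3.9e-05), and the exporter gene Abcc3 by -4.19 ± 0.50. The glutathione transferase gene Gsta4 had -2.54 ± 0.24 and the NADPH oxidase gene Nox4 had -1.16 ± 0.17, both lower in males. Me1, the malic enzyme that makes NADPH, was higher in males by 1.13 ± 0.12 (edgeR adjusted p = 0.000124). Of the 20 tested glutathione genes 3 were called higher and 8 lower in males, and of the 11 regulators 2 were higher, Sqstm1 and Bach2, and 1 lower, Nfe2l1.

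The genes whose log2 CPM was most like that of Hmox1 over the 12 libraries were Oasl1, Mcm2, Sgol2, Lpin3 and Ctsa, out of 12696 candidates. Their Pearson correlations were 0.87, 0.86, 0.84, 0.83 and 0.83, and each gene was highest in UNx CrePlus replicate 1. Without the 2 UNx CrePlus libraries farthest from the median they were 0.58, 0.56, 0.76, 0.73 and 0.86 in the same order. For Nqo1 the closest were Gtf2b, Esd, Surf1, Ccdc53 and Glod4, at 0.92, 0.90, 0.88, 0.88 and 0.88. The libraries share sex, depth and group, and these values describe likeness only.

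There are 2 versions of the authors' deposited table of UNx against sham, both listing the same 12 libraries. The first of these authors' deposited tables gives Hmox1 a log2 fold change of 0.25 with a standard error of 0.10 and the second 0.24 with 0.10. The edgeR fit gave 1.51 averaged over Cre status, and DESeq2 run here on the same counts gave 1.52. The authors' values may rest on other settings, which were not examined, so the sizes are not a like comparison. The first leaves the p-value of Hmox1 blank and the second fills it in. The adjusted p-value of Slc7a11 is blank in all 6 of the authors' deposited tables, which hold 4 comparisons, and that of Hmox1 is not given here. For Gsr both versions of the authors' deposited table of UNx against sham give 0.23, with an adjusted p of 0.521 in the first and 0.337 in the second, and the edgeR fit gave 0.25.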

How the data were processed

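Kidney total RNA was turned into libraries with the SMART-Seq v4 kit, per the labels' protocols, which keeps no record of strand. The submitters' processing notes name DESeq2, HTSeq, cutadapt 1.11 and FastQC 0.11.5 and the builds mm10 and GRCm38. An aligner, an annotation and a strand option for counting were not given in the sources used here. The deposited tables hold the authors' read counts per gene, their baseMean (a signal of scaled counts), log2 fold changes, test statistic (a score) and p-values, of which the log2 fold changes and p-values are quoted as the authors'. Of 24067 rows, 5 repeated symbols were kept once.

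Counts were fitted in R 4.3.3 with edgeR 4.0.16 (filterByExpr, TMM, glmQLFit and glmQLFTest, 4 group means over 12 libraries), and p-values were adjusted by Benjamini-Hochberg over all 14970 genes tested. The edgeR fit was tested on simulated data, and DESeq2 1.42.0 was an alternative. SE is the fold change over the root of F. The listed genes and the 8 pathway and 9 marker lists were chosen with earlier results of these data known. All 10 genes are named, with up to 3 called genes a pathway list and comparison, of which some are given. The 5 genes most like Hmox1 and Nqo1 are named among those with a mean of at least 1 CPM. Male libraries had under 100 CPM of Xist and over 5 CPM of Ddx3y. Positions and sequences are from RefSeq for GRCm38, and exon lengths are from GENCODE.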

Additional observations from a re-analysis of the deposited data

How the results depend on the processing

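Of the 8 tested genes, 0 were called in each of the 7 comparisons of Cre and UNx with DESeq2, RLE scaling, no filter on low counts, terms for sex, depth or both, females only and each library left out in turn. With only the groups compared, 0 were called in the 4 comparisons of a pair of groups. Averaged over Cre status, the UNx log2 fold change of Gsr was 0.13 to 0.29 and that of Srxn1 0.13 to 0.27 under 19 alternatives. Txnrd1 reversed to -0.0018 with a term for depth (edgeR adjusted p = 1.0), and the cause was not tested. Among females the Cre difference of Hmox1 in UNx kidneys was -0.52 on the log2 scale, but UNx CrePlus then held 1 library, which is assumed to vary like the other groups. Between males and females 4 of the 8 were called, 1 to 5 when a library was left out and 2 with terms for sex and depth. Of all genes 20.4% were called, 9.63% to 21.8% when a library was left out and 13.5% with both terms. No paired analysis was possible because the labels used here name no pairs of libraries. With 3 libraries a group and 1 library deciding the level of Hmox1, a group difference and a difference of that kidney cannot be told apart. Slc7a11, with 0 to 15 counts a library, was not tested.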
